A study of Mus musculus with 6 samples.

Results

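The death-associated protein kinases described here are 4 genes, Dapk1, Dapk2, Dapk3 and Stk17b, of the 53465 gene identifiers with estimated counts. Dapk1 was selected on its loss in axitinib-resistant (AxR) cells, so its own difference between the lines is given as a description, with no test, and Dapk2, Dapk3 and Stk17b were taken by family name. Stk17a, the remaining relative by name, has no identifier among them. Each of the 4 members was among the 13550 genes with enough counts to be tested.

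RNA was sequenced from 2 lines of 4T1, a mouse mammary carcinoma cell line, with 3 libraries each. The parental (P) cells were the vehicle-treated counterpart. The AxR line was grown from metastases that arose in mice after removal of the primary tumor under the VEGF receptor inhibitor axitinib (100 mg/kg/day), and was then kept in culture with 0.5 μM axitinib for over 2 months. The growth label names 0.5 μM axitinib for all 6 samples and the treatment labels for AxR cells alone, so whether P cells were cultured with the drug could not be settled. AxR is a single line, and no source used here calls the replicates separate cultures, so p-values measure only the spread between these libraries. Libraries held 15495260 to 17294525 estimated counts, and no library stood apart in depth. Cells of the lung and stroma could remain in a line grown from a metastasis. The 8 leukocyte markers summed to 0.261 to 0.520 CPM (counts per 1000000, after upper quartile scaling) in P and 0.398 to 0.446 CPM in AxR, with Cd3e, Tyrobp and Fcer1g among those at 0 in every library. The 6 endothelial markers summed to 0.425 to 0.693 CPM in P and 0.191 to 0.383 CPM in AxR, with Kdr and Emcn at 0. The 6 lung epithelial markers summed to 0.577 to 1.15 CPM in P and 4.15 to 4.21 CPM in AxR, mostly Foxj1, with Scgb1a1 at 0. The 8 fibroblast markers summed to 22.5 to 24.1 CPM in P and 10.2 to 11.6 CPM in AxR, nearly all Pdgfra, with Col3a1, Lum and Thy1 at 0. The 8 mammary epithelial markers, of the tissue that 4T1 came from, summed to 1550 to 1714 CPM in P and 2323 to 2413 CPM in AxR, with Krt5 at 0. Of the 7 tested, 5 were higher in AxR and 2 were lower, Krt19 and Cldn7, at log2 fold changes of -1.31 and -3.43. Among all genes tested, 32.8% were higher in AxR and 30.8% were lower. The fibroblast, endothelial, lung and mammary epithelial sums thus did not overlap between the lines. Taken singly, 68.3% of all genes tested did not overlap either. The part of these cell types in the results was not tested.

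Death-associated protein kinases are serine/threonine kinases of the calcium/calmodulin-dependent group that share a related catalytic domain and are known for roles in apoptosis, autophagy and the contraction of the actin cytoskeleton through myosin light chain. DAPK1 and DAPK2 carry a calmodulin-binding segment that holds the kinase inactive until calcium rises, and DAPK1 adds ankyrin repeats and a death domain. DAPK3, also called ZIPK, lacks the calmodulin-binding segment, and STK17B, also called DRAK2, is a more distant relative that is best known from lymphocytes.

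The promoters of Dapk1 and Dapk2 are shown because these members had the largest fitted differences, in opposite directions. RefSeq promoter windows of 300 bases on GRCm38.p6, from 250 bases before to 50 after each start site, matched 4 of 4 members. The stretches printed are the bases of each window upstream of the start site that lie in no annotated exon of the gene, chr13:60602111-60602210 on the plus strand for Dapk1 and chr9:66157976-66158222 on the plus strand for Dapk2. The annotated Dapk1 gene starts further upstream, at chr13:60601947. Its whole window thus lies inside the gene and holds exon bases, and the printed stretch lies between annotated exons. The Dapk2 stretch lies before the annotated gene, which starts at chr9:66158223. Capitals mark CG dinucleotides, the bases at which DNA methylation occurs in mammals.
Dapk1: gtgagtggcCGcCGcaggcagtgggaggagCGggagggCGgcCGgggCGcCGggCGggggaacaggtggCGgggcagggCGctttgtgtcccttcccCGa
Dapk2: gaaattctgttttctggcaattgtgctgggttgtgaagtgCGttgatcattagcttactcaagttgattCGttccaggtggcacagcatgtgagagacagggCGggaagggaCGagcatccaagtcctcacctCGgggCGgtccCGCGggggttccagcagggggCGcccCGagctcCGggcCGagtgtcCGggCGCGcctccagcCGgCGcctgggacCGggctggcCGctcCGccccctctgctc
The whole Dapk1 window held 38 CG dinucleotides and 77.7% G or C, and 4.95% of 32851 promoter windows of that length held as many CG or more. The Dapk2 window held 28 CG dinucleotides and 67.7% G or C, and 14.2% of windows held as many or more. Across all windows the median was 7 CG dinucleotides and 94.6% held at least 1. Searched on both strands, the letters GGGCGG, a GC box of the kind bound by SP1, occurred 2 times in the Dapk1 window and 4 times in the Dapk2 window, and 35.7% of all windows held the motif at least once. The Stk17b window held 24 CG dinucleotides and 6 GC boxes, and the 3 windows of Dapk3 held 20, 26 and 6 CG dinucleotides and 1, 2 and 0 GC boxes. The windows of Dapk1 and Dapk2 were therefore both richer in CG than most. Methylation was not measured in these samples.

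Dapk1, the member with ankyrin repeats and a death domain, was detected in every P library and was nearly absent from AxR. The gene (ENSMUSG00000021559.14) spans chr13:60601947-60763191 on the plus strand, with 7 annotated transcripts and 9012 bases of exon. Its estimated counts were 233, 278 and 208 in P replicates 1, 2 and 3, and 0, 2 and 0 in AxR replicates 1, 2 and 3. A single AxR library thus held both of the counts seen in that line. The level was 14.2, 16.1 and 13.6 CPM in the P libraries, a mean of 14.6 ± 1.30 CPM (SD, n = 3), against 0, 0.128 and 0 CPM in the AxR libraries. Summed over libraries and scaled for depth, 719 counts in P against 2 in AxR is a ratio of 359. No interval is given for it, since Dapk1 was chosen for this difference. With each AxR library set at 3 counts, the ratio would be 79.2. A count of 3 is the limit that a count of 0 allows at 95% confidence. AxR replicate 2 held 2 counts, which allow more than 3, so 79.2 is not a lower bound. These libraries hold RNA from whole cultures, so fewer cells with the transcript and less transcript per cell cannot be told apart.

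Near-complete loss was the ground on which Dapk1 was chosen, so the genes that shared it are given as a description. Of the 13550 genes tested, 86 were at or under 3 counts in every AxR library, and 6 of these, Dapk1 among them, had at least 10 CPM in every P library. The number of all tested genes at that P level was not counted, so how rare such a loss was cannot be said. By the Euclidean distance between log2 CPM profiles centred on their means over the 6 libraries, the gene most like Dapk1 was Parvb, which encodes the focal adhesion protein beta-parvin, at a distance of 0.446. Parvb had a mean of 18.0 CPM in P and 0 to 3 counts in AxR. The next was Serpine2, an extracellular inhibitor of serine proteases (0.862), with 10.9 CPM in P and no count in AxR. Then came Gng11, a G protein gamma subunit (0.969), Ube2ql1 (0.974) and Epdr1 (1.08), with means of 14.8, 8.75 and 7.99 CPM in P and no count in AxR. Ube2ql1 and Epdr1 lie on chromosome 13, as Dapk1 does, and Parvb, Serpine2 and Gng11 lie on chromosomes 15, 1 and 6. Chromosome 13 holds 555 of the 13550 genes tested, and whether position matters was not tested.

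**Figure D1:**
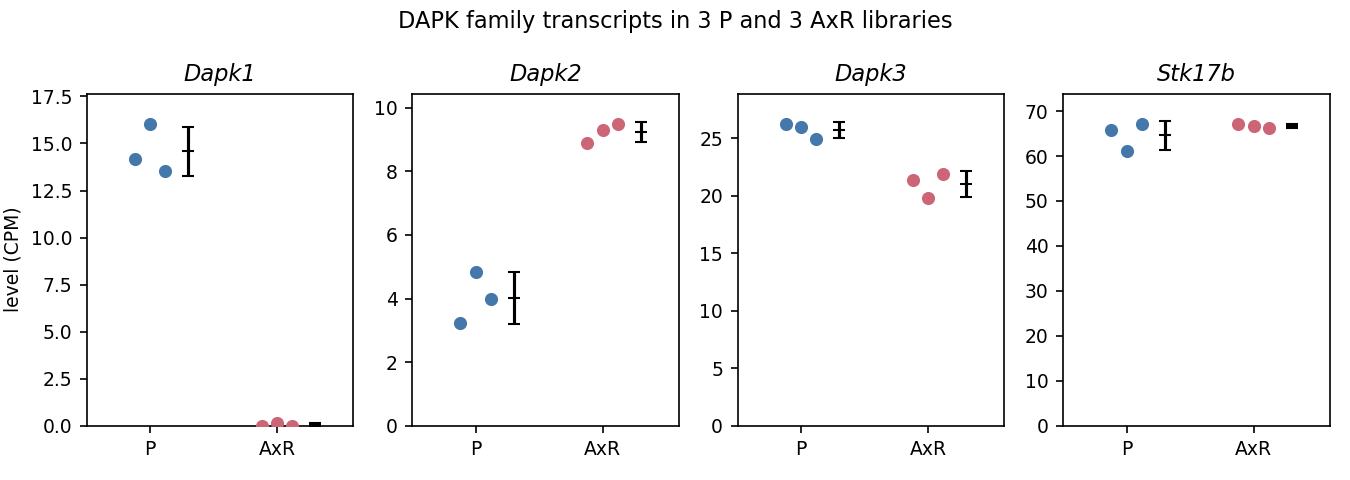
Level of each DAPK family member in CPM (vertical axis from 0, its own scale in each panel) in the 3 P (blue) and 3 AxR (red) libraries, with the mean and SD beside the points. Dapk1 lies at 13.6 to 16.1 CPM in P and at 0 to 0.128 CPM in AxR, Dapk2 lies higher and Dapk3 lower in every AxR library, and the Stk17b libraries overlap.

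The question of whether a paralog was higher in the line that lost Dapk1 was addressed by the other members, tested with the edgeR quasi-likelihood test across all genes with Benjamini-Hochberg adjustment. Of the 3, Dapk2 was higher in AxR, Dapk3 was lower and Stk17b did not pass the threshold of 0.05. In the same test 32.8% of all genes tested were higher and 30.8% were lower in AxR. A call in either direction was therefore common among genes at large. The libraries of the 2 lines did not overlap for Dapk2 and Dapk3, and this held for 68.3% of all genes tested. An exact permutation test of a single gene with 3 against 3 libraries cannot give a two-sided p below 0.1, which Dapk2 and Dapk3 both reached, and it gave 0.3 for Stk17b.

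Dapk2, the member closest to Dapk1 in carrying a calmodulin-binding segment, rose in AxR. The gene (ENSMUSG00000032380.8) spans chr9:66158223-66272242 on the plus strand, with 4 transcripts and 3512 bases of exon. Estimated counts were 53, 84 and 61 in P and 140, 146 and 167 in AxR. In CPM the P libraries lay at 3.22, 4.85 and 3.98 and the AxR libraries at 8.89, 9.31 and 9.50, so the lowest AxR library was above the highest P library. The mean went from 4.02 ± 0.815 CPM to 9.23 ± 0.312 CPM (SD, n = 3 each), and the spread between libraries was smaller in AxR. The log2 fold change was 1.20 (SE 0.146, 95% interval 0.88 to 1.51, edgeR adjusted p = 3.99e-06), a fold of 2.29 with an interval of 1.85 to 2.85. A rise of at least 1 on the log2 scale that passed the test was found in 7.99% of all genes tested.

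Dapk3, the kinase that phosphorylates myosin light chain without calmodulin, fell by a smaller fraction. The gene (ENSMUSG00000034974.13) spans chr10:81183005-81193197 on the plus strand, with 11 transcripts and 2532 bases of exon. Estimated counts were 432, 450 and 382 in P and 337, 310 and 385 in AxR. In CPM the libraries lay at 26.3, 26.0 and 24.9 in P and at 21.4, 19.8 and 21.9 in AxR, with every AxR library below every P library. The log2 fold change was -0.29 (SE 0.0738, 95% interval -0.45 to -0.13, edgeR adjusted p = 0.00296), so that AxR held 0.818 of the P level, with an interval of 0.733 to 0.912. The antisense gene 4930442H23Rik, which overlaps an exon of Dapk3, held 1 to 2 counts in P and 2 to 4 in AxR.

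Stk17b, the distant relative, was the most abundant member and did not pass the test. The gene (ENSMUSG00000026094.14) spans chr1:53755506-53785224 on the minus strand, with 3 transcripts and 5185 bases of exon. Estimated counts were 1081, 1057 and 1028 in P and 1058, 1044 and 1163 in AxR. The levels were 65.7, 61.0 and 67.0 CPM in P and 67.2, 66.6 and 66.2 CPM in AxR, with the lines overlapping. The log2 fold change was 0.05 (SE 0.0563, edgeR adjusted p = 0.498), and its 95% interval of -0.07 to 0.17 corresponds to 0.950 to 1.12 of the P level. A change as large as that of Dapk2 lies outside this interval.

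Levels of different genes were compared per kb of exon, since longer transcripts give more counts. In P the order was Stk17b with 12.5 ± 0.608 CPM per kb, Dapk3 with 10.2 ± 0.282, Dapk1 with 1.62 ± 0.144 and Dapk2 with 1.14 ± 0.232 (SD, n = 3). Dapk1 lay at 1.50 to 1.78 CPM per kb and Dapk2 at 0.917 to 1.38, so these neighbours in the order did not overlap. They did overlap when each gene was divided by its longest transcript instead of all its exons, at 2.47 to 2.92 for Dapk1 and 1.82 to 2.74 for Dapk2, and their order in P therefore depends on the length used. In AxR the order was Stk17b with 12.9 ± 0.0995 CPM per kb, Dapk3 with 8.30 ± 0.441, Dapk2 with 2.63 ± 0.0889 and Dapk1 with 0.00472 ± 0.00817, and no neighbours overlapped by either length.

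Set side by side per kb of exon, the loss of Dapk1 and the gain of Dapk2 were close in size. Dapk1 was 1.61 CPM per kb lower in AxR than in P, as the mean difference, and Dapk2 was 1.49 CPM per kb higher. The sum of these 2 members was 2.49 to 3.16 CPM per kb in the P libraries (mean 2.76 ± 0.354, SD, n = 3) and 2.53 to 2.71 in the AxR libraries (mean 2.63 ± 0.0909), so the lines overlapped. With the longest transcript as length Dapk1 was 2.65 lower and Dapk2 2.94 higher, and the sums were 4.92 ± 0.657 in P and 5.22 ± 0.179 in AxR, again overlapping. In CPM, without regard to length, the Dapk2 gain of 5.22 was smaller than the Dapk1 loss of 14.5, because Dapk1 has the longer exons. These are transcript sums that hold Dapk1, for which no test is given, and protein was not measured in these files.

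Dapk3 was 1.85 CPM per kb of exon lower in AxR, a difference above those of Dapk1 and Dapk2 (with the longest transcript, 2.71 lower and below the Dapk2 gain), and Stk17b was 0.396 CPM per kb higher, a value within the spread of its libraries. Summed over the 4 members, the family stood at 25.2 to 25.5 CPM per kb in P (mean 25.4 ± 0.170) and at 23.3 to 24.1 in AxR (mean 23.8 ± 0.423). This total holds Dapk1, which was chosen for its loss. Without Dapk1 the sum was 23.41 to 23.96 CPM per kb in P (mean 23.8 ± 0.299) and 23.30 to 24.12 in AxR (mean 23.8 ± 0.431), and the lines overlapped. They also overlapped with the longest transcript as length, at 36.7 ± 0.396 in P and 37.6 ± 0.630 in AxR. Within the sum, the Dapk1 share went from 6.38% in P to 0.0202% in AxR and the Dapk2 share from 4.51% to 11.1%. The Dapk3 share went from 40.0% to 34.9% and the Stk17b share from 49.1% to 54.0%, so Dapk3 and Stk17b made up most family transcripts in both lines.

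**Figure D2:**
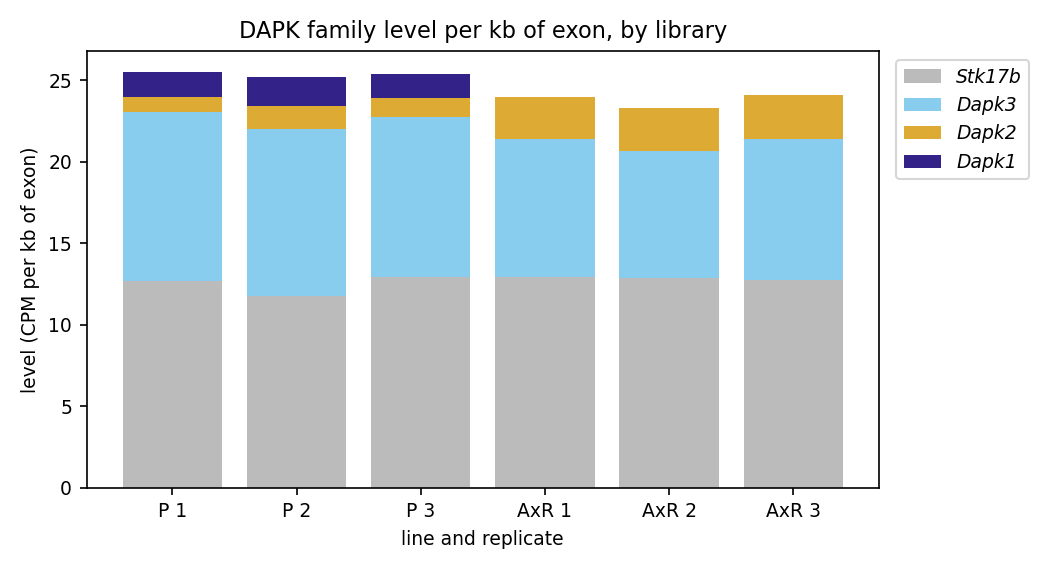
Level per kb of exon (CPM per kb, stacked from 0) of Stk17b, Dapk3, Dapk2 and Dapk1 in each library. The family total, Dapk1 included, is 25.2 to 25.5 in P and 23.3 to 24.1 in AxR, the dark Dapk1 segment is missing from AxR, and the Dapk2 segment is thicker there.

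The members can be told apart by sequence. No 50-base word of any member's annotated transcripts occurred in a transcript of another member. For Dapk1, 21 of 9182 such words (0.229%) occurred in transcripts of other genes, and for Dapk2, Dapk3 and Stk17b none did. The estimated counts of all 4 members were whole numbers in all 6 libraries.

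The genes around each member did not all move with it. As a background for the calls around every member, 32.8% of all genes tested were higher in AxR and 30.8% were lower. Among the 5 tested genes on each side of Dapk1, 1 was higher in AxR, 4 were lower and 5 did not pass the test, with log2 fold changes from -1.81 to 1.15 and a median of -0.42. The nearest tested gene outside Dapk1 on its left, Tut7, which encodes a terminal uridylyltransferase, lies 779 kb away and had a log2 fold change of -0.34. The nearest on its right, 4930486L24Rik, lies 79.4 kb away. Of the 4 lower genes, Gm48194 lies inside Tut7, another of them, and had means of only 0.873 CPM in P and 0.380 CPM in AxR. The processed pseudogene Gm48583 lies inside Dapk1 on the same strand, in no exon of it, and was higher in AxR, from 26.0 to 37.2 counts in P to 51.3 to 80.5 in AxR (log2 fold change 1.15, edgeR adjusted p = 0.000531). The transcript Gm48582, also inside Dapk1, had too few counts to be tested, with 2 to 4 in P and 0 in AxR. The median log2 fold change of the 555 tested genes of chromosome 13 was -0.27.

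For Dapk2, no neighbour was higher, 5 were lower and 5 did not pass the test, with a median of -0.36 and a range of -1.53 to 0.08. All 10 neighbours thus lay below the log2 fold change of 1.20 of Dapk2 itself. The nearest were Ciao2a, an iron-sulfur cluster assembly factor, at -0.08, and Herc1, a ubiquitin ligase, at -0.49. The chromosome 9 median was -0.23 over 757 genes, of which 3.30% lay above Dapk2. Around Dapk3, 6 neighbours were higher, 1 was lower and 3 did not pass, with a median of 0.29 and a range of -0.21 to 1.43, and the chromosome 10 median was 0.25 over 670 genes. Dapk3 with -0.29 lay below all of these neighbours, and 14.6% of the tested genes of chromosome 10 lay below Dapk3. Eef2, the translation elongation factor whose gene ends 507 bases away, had a log2 fold change of -0.01 (edgeR adjusted p = 0.866), and Zfr2 on the other side had 1.43. Around Stk17b, 2 neighbours were higher and 8 were lower, with a median of -0.36 and a range of -1.24 to 0.83, against a median of -0.29 over 811 genes of chromosome 1. The nearest were Asnsd1 at -0.39 and Hecw2, a ubiquitin ligase, at 0.67.

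**Figure D3:**
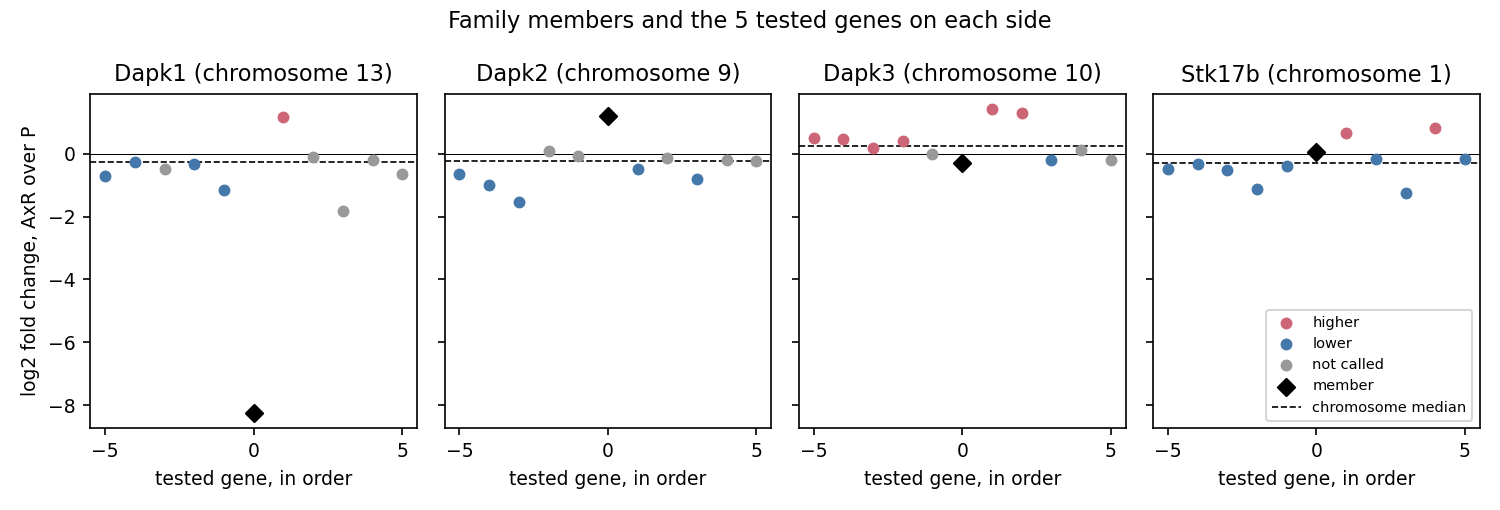
Log2 fold change of AxR over P (vertical axis) for each member (black diamond) and the 5 tested genes on each side in chromosomal order (horizontal axis), coloured by call, with the chromosome median dashed. Dapk2 lies above all of its neighbours, Dapk3 below all of its own, and no neighbour of Dapk1 is below -1.81, whereas the fitted value of Dapk1 rests on 2 AxR counts and is no bound.

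Genes that act on the family were described from a list of 30 regulators, which holds calmodulins, phosphatases, kinases, ubiquitin ligases, chaperones, transcription factors and dependence receptors. Of the 28 tested, 14 were higher in AxR (50%, against 32.8% of all genes tested), 10 were lower (35.7%, against 30.8%) and 4 did not pass the test, with a median log2 fold change of 0.04 against 0.0058 over all genes tested. Only Src changed by at least 1 on the log2 scale, and a fall of that size was found in 4.72% of all genes tested. Src, the tyrosine kinase that phosphorylates and inactivates DAPK1, had 193, 204 and 190 CPM in P and 88.4, 98.5 and 100.3 CPM in AxR, a log2 fold change of -1.03 (SE 0.0581, edgeR adjusted p = 8.82e-10). The lines did not overlap, which held for 68.3% of all genes tested, and the AxR mean was 0.489 of the P mean. The largest rises were those of Rps6ka1, which encodes the kinase RSK1, from a mean of 29.9 to 55.7 CPM (log2 fold change 0.90), and of Hsp90ab1, the HSP90 chaperone that stabilises DAPK1, from 1773 to 3084 CPM (0.80).

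Some regulators were singled out by role after their values were seen. Cul3 and Klhl20, which encode parts of the ubiquitin ligase that marks DAPK1 for degradation, were both lower, at log2 fold changes of -0.52 and -0.51. Other ubiquitin ligases of the list, Mib1 and Stub1, were higher, at 0.60 and 0.17. Trp53, which encodes the tumor suppressor p53, a transcription factor linked to DAPK1, was lower at -0.32. Each of these 5 genes passed the test, but they were picked with their values known, so this is no result about the regulators. Among all genes tested, 32.8% were higher in AxR and 30.8% were lower, and only 4 of the 28 tested regulators did not pass. The receptors Unc5a and Unc5c had at most 1 count in any library and were not tested.

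Substrates and binding partners of the kinases, formed a list of 24 genes. Of the 21 tested, 7 were higher in AxR (33.3%, against 32.8% of all genes tested), 5 were lower (23.8%, against 30.8%) and 9 did not pass the test, with a median log2 fold change of -0.07. The falls of at least 1 on the log2 scale were those of Mapt and Stx1a. Mapt, which encodes the microtubule protein tau, had 5.47, 6.70 and 5.28 CPM in P and 1.46, 1.47 and 0.796 CPM in AxR (log2 fold change -2.24, SE 0.223, edgeR adjusted p = 4.41e-07). Stx1a, which encodes the membrane fusion protein syntaxin-1A, had 9.18, 9.93 and 7.76 CPM in P and 2.73, 3.32 and 3.02 CPM in AxR (-1.57, SE 0.149, adjusted p = 2.75e-07). The lines did not overlap in either gene, which held for 68.3% of all genes tested. A fall of at least 1 that passed the test was found in 4.72% of all genes tested. The largest rises were those of Pik3c3, the lipid kinase VPS34 of autophagy, from 15.4 to 28.6 CPM (log2 fold change 0.89), and of Tsc2, a negative regulator of mTORC1, from 43.8 to 66.4 CPM (0.60).

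Further substrates were singled out by role after their values were seen. The myosin regulatory light chain genes Myl12a and Myl12b were higher at log2 fold changes of 0.16 and 0.24, and Myl9 had no count in any library. Tpm1, which encodes the actin-binding protein tropomyosin 1, was higher at 0.47, and Becn1, which encodes the autophagy protein Beclin 1, was lower at -0.25. All 4 tested genes passed the test, whereas 9 of the 21 tested genes of the list did not, so the pick is no result about the list. Among all genes tested, 32.8% were higher in AxR and 30.8% were lower.

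**Figure D4:**
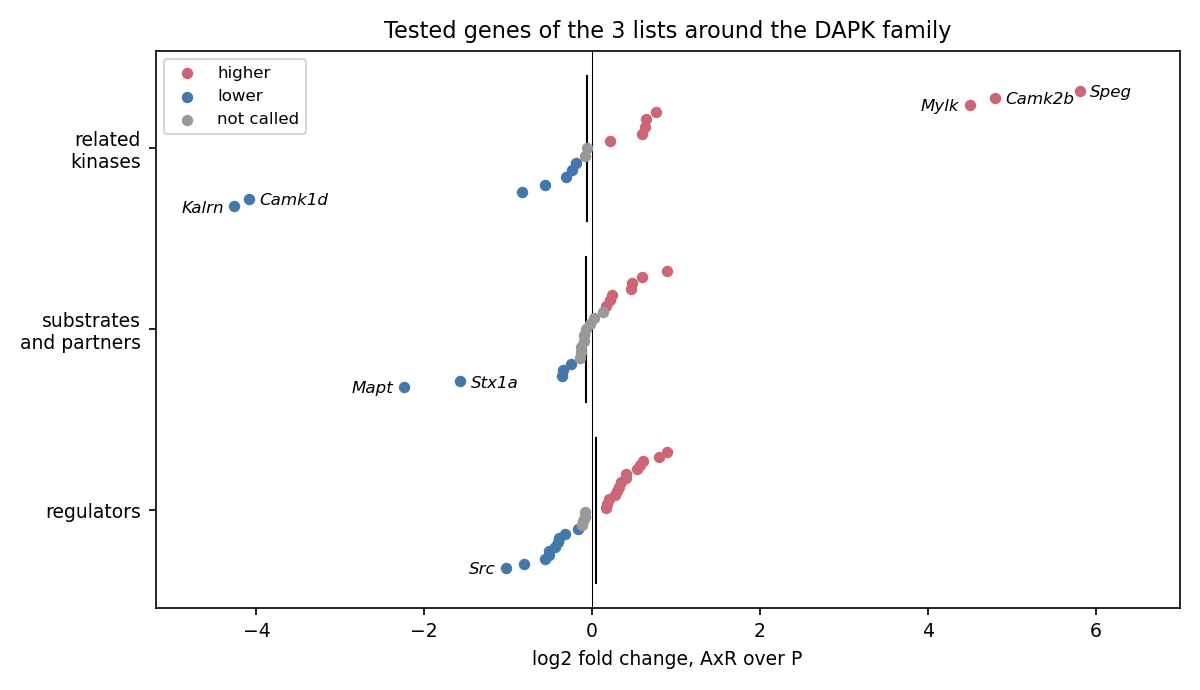
Log2 fold change of AxR over P (horizontal axis) for the tested genes of the lists of regulators (28), substrates and partners (21) and related kinases (17), 1 point per gene, coloured by call, with the list median as a black bar. Most points lie within 1 of 0, and the genes named are those that changed by at least 1 on the log2 scale. Speg, Camk2b, Camk1d and Kalrn had enough counts in 1 line only, so their colours are not a test result.

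Kinases outside the family that share its calmodulin control or its myosin light chain substrate were taken as a further list. Of its 26 genes 17 were tested, and 8 were higher in AxR (47.1%, against 32.8% of all genes tested), 7 were lower (41.2%, against 30.8%) and 2 did not pass the test, with a median log2 fold change of -0.06. By at least 1 on the log2 scale 3 were higher and 2 were lower, where the shares over all genes were 7.99% and 4.72%. Of these 5, Speg, Camk2b, Camk1d and Kalrn had enough counts in 1 line only, and a gene that enters the test in that way had to differ. They are therefore given as levels, with no test. The counts and shares above include them and are not read as a result about the list. With at least 10 counts required in every library, 6 genes of the list were higher and 5 were lower. Among all genes under that filter, 4049 were higher and 3939 were lower. The number tested under it is not given here, so no shares are compared. The 9 genes of the list left out of the main test had too few counts.

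Mylk, which encodes the myosin light chain kinase of smooth muscle and non-muscle cells, had 1.64, 0.808 and 1.37 CPM in P and 30.5, 29.5 and 26.1 CPM in AxR (log2 fold change 4.50, SE 0.156, edgeR adjusted p = 4.45e-12). Camk2b, a calcium/calmodulin-dependent kinase II subunit best known from brain, had 0.547, 0.404 and 0.652 CPM in P and 13.1, 15.3 and 16.3 CPM in AxR. Speg, a striated muscle kinase related to Mylk, had 2, 6 and 7 counts in P and 286, 268 and 306 in AxR. These genes were thus at low levels in P and well detected in every AxR library.

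In the other direction, Camk1d, a calcium/calmodulin-dependent kinase I, had 8.39, 7.97 and 8.08 CPM in P and 0.445, 0.765 and 0.228 CPM in AxR, the latter from 7, 12 and 4 counts. Kalrn, a guanine nucleotide exchange factor with a kinase domain, had 40, 32 and 31 counts in P and 2, 2 and 1 in AxR. Kalrn was thus at the floor in every AxR library, and its ratio of P to AxR over summed counts was 20.6, given as a description with no interval. The smaller rises of the list included Cask, a scaffold kinase, and Camk2d, at log2 fold changes of 0.76 and 0.64, and the smaller falls Camkk1 at -0.83, all named after their values were seen.

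**Figure D5:**
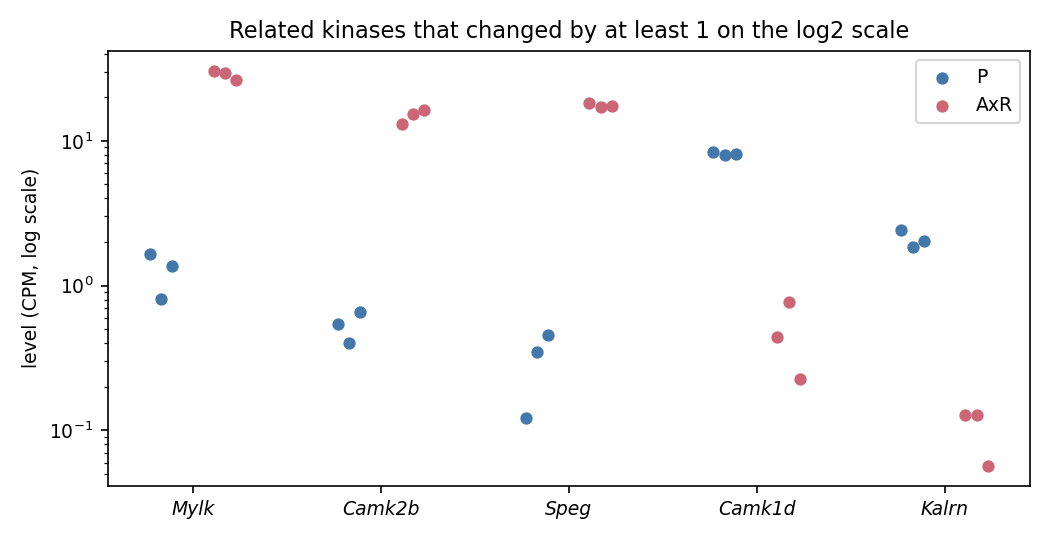
Level in CPM (log scale) of the 5 related kinases with a fitted difference of at least 1 on the log2 scale, in the 3 P (blue) and 3 AxR (red) libraries. Mylk, Camk2b and Speg lie higher in every AxR library, and Camk1d and Kalrn lie lower.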

How the data were processed

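Stranded, poly(A)-selected libraries of 3 P and 3 AxR samples were analysed, grouped by sample labels, which name no batch. The authors checked reads with FastQC 0.11.5, aligned them to GRCm38 with STAR 2.6.0a and GENCODE M16, and deposited estimated counts per gene from RSEM 1.3.1, unfiltered. RSEM shares reads that match several genes among them, so these counts need not be whole. Here they were rounded, filtered with filterByExpr, normalized by upper quartile (factors 0.966 to 1.02) and tested by quasi-likelihood in edgeR 4.0.16 (R 4.3.3), with line as the only term, two-sided, and Benjamini-Hochberg adjustment over 13550 genes at a threshold of 0.05. The test was tried on simulated data first. Symbols and lengths came from GENCODE M21 on the same build, in which 53360 of 53465 identifiers were found. Exact permutation tests used log2 CPM with a pseudocount of 0.5, and profiles a prior count of 2. A count of 3 corresponded to 0.171 to 0.196 CPM per library. Floors cover counting error only. Replicates differed by more than sampling noise, with chi-square per degree of freedom of 4.75 to 17.9.

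The members and lists were chosen with earlier results of these data known. Named with values were all members, list genes called with a log2 change of 1 or more in size, otherwise the 2 called with the largest change in each direction, the nearest tested and overlapping genes, and the 5 genes most like Dapk1. Alternatives were TMM or no scaling factors, DESeq2 1.42.0, limma 3.58.1 (voom), other filters and thresholds, a replicate block, each library left out, and the longest transcript as length. Values of some single list genes are not reported here.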

Additional observations from a re-analysis of the deposited data

How the results depend on the processing

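Across 13 alternatives, the log2 fold change of Dapk2 was 1.06 to 1.36 (adjusted p 3.58e-15 to 5.69e-05), that of Dapk3 -0.32 to -0.24 (0.00198 to 0.0226) and that of Stk17b 0.01 to 0.08 (0.358 to 0.925), each on its own side of the threshold. The fitted value for Dapk1, -8.24, rests on 2 AxR counts in replicate 2 and lay between -10.91 and -7.68 over 12 alternatives. It was -7.75, -10.91 and -7.68 without AxR replicates 1, 2 and 3, and a filter of 10 counts in every library removed the gene. A further threshold of 1 on the size of the log2 change left 1083 genes higher and 640 lower, and 0 and 1 regulators. It left 0 and 2 substrates and partners, and 3 and 2 related kinases, all but Mylk well detected in 1 line only. Under the other 14 alternatives each of these counts stayed within 1.5 times its main value. Replicate numbers did not pair the samples, since the deviations of same-numbered libraries correlated at -0.0213, -0.0061 and -0.0217. With the number as a replicate block, the log2 fold changes were 1.21 for Dapk2 (adjusted p = 8.67e-06), -0.29 for Dapk3 (0.00729) and 0.05 for Stk17b (0.547). Per kb of longest transcript in place of all exons, the mean levels in P were 2.66 CPM for Dapk1, 2.27 for Dapk2, 14.9 for Dapk3 and 19.6 for Stk17b, and in AxR 5.21, 12.2 and 20.2 for the last 3. Genes at or under 3 counts per library in both lines were too shallow at this depth for a comparison.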
